A study of Mus musculus with 6 samples.

Results

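The 37 genes described here encode parts of the cornified envelope and of the late differentiation of keratinocytes, and they were followed through 6 mouse mammary tumours. They were chosen by name, with earlier results of these same tumours known, so the values of the group comparison are a description and no test of the genes rests on them. Of the 37 genes, 36 had at least 1 of 50 probes on the array and 23 were bright enough to be tested, out of 12864 genes tested. Filaggrin (Flg) had no probe named for it, and 13 genes were under the filter on dim probes, which asked for a signal above background on at least 3 of the 6 arrays. A gene bright in only 1 or 2 tumours therefore fell under the filter, and the 23 measured genes do not stand for all 37.

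The tumours came from 12-week-old female mice of the pure FVB strain. All of them carried MMTV-PyMT, a transgene that expresses the middle T oncoprotein of polyomavirus in the mammary epithelium from a viral promoter (MMTV, mouse mammary tumour virus). The 3 PyMT control tumours carried no other transgene that the labels name, and the 3 PyMT/ETP (PyMT/C5) tumours also carried a transgene for endotrophin, the carboxy-terminal fragment of the collagen VI alpha 3 chain. The promoter of the endotrophin transgene is not given in the sources used here, nor whether each tumour came from a different mouse, so a p-value measures only the spread between these samples. All 12 luminal epithelial markers of the list used here were tested, among them Krt8, Krt18 and Krt19, and 11 or 12 of them were above background on every array. Values are background-corrected Illumina probe intensities plus 16 on the log2 scale, on which the background limit lay at 4.61. Differences of dim genes are understated on this scale, and levels of different probes cannot be set against each other.

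Stratified epithelia such as the epidermis build a cornified envelope in their uppermost living layers. Involucrin, loricrin, small proline-rich proteins and other precursors are laid down under the membrane on a scaffold of envoplakin and periplakin, and transglutaminases cross-link them. Keratins 1 and 10 replace the basal keratins in the same cells, kallikreins cut the corneodesmosomes that hold the dead cells together, and peptidylarginine deiminases modify keratin-associated proteins. The luminal epithelium of the mammary gland does not cornify, while squamous differentiation of mammary tumours is a known histological variant.

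Of the 23 measured cornified envelope genes, 12 stood at least 1 log2 unit above all 3 PyMT/ETP tumours in both PyMT control tumours 2 and 3, against 0.272% of all genes tested. PyMT control tumour 3 was the highest of the 6 tumours for 21 of the 23 genes, against 19.0% of all genes tested. In 18 of the 23 genes it stood at least 1 log2 unit above all 3 PyMT/ETP tumours, against 0.762% of all genes. The same was true of PyMT control tumour 2 for 13 genes (0.451% of all genes) and of PyMT control tumour 1 for 0 genes (0.0466% of all genes). No gene of the 23 was at least 1 log2 unit higher in any PyMT/ETP tumour than in all control tumours, which was seen for 0.187%, 0.0622% and 0.187% of all genes in PyMT/ETP tumours 1, 2 and 3. The median of the 23 genes lay above the mean of the PyMT/ETP tumours by 0.23 log2 units in PyMT control tumour 1, by 1.47 in tumour 2 and by 2.95 in tumour 3. Over all genes tested, these medians were 0.00 or -0.01. The summed corrected intensity over the 36 genes with a probe was 1824 in PyMT control tumour 1, 5358 in tumour 2 and 14153 in tumour 3, and it ran from 1433 to 1574 in PyMT/ETP tumours. In such bulk RNA, fewer cells of a type and less RNA per cell cannot be told apart.

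**Figure D1:**
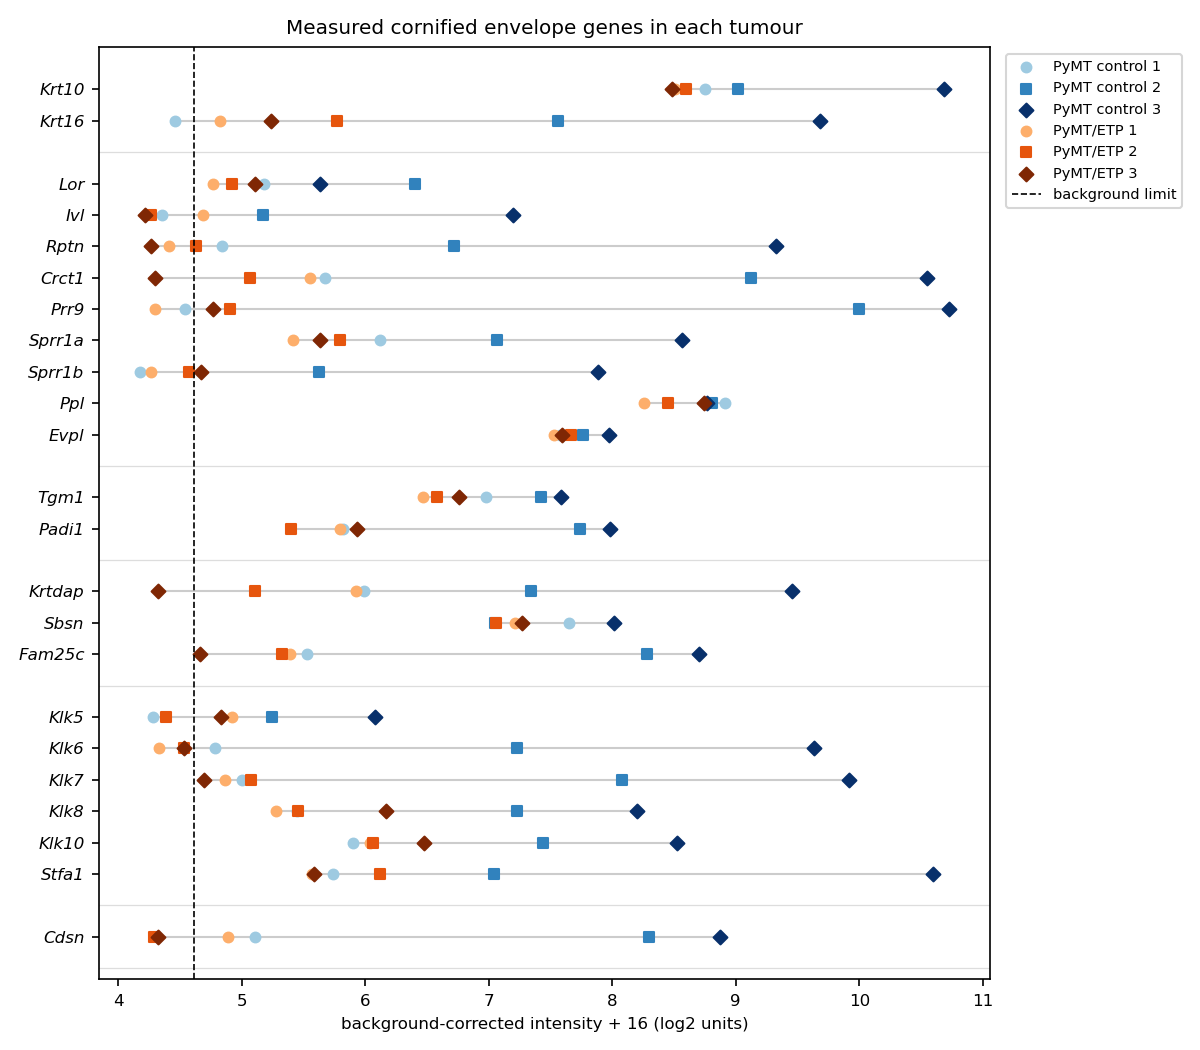
Background-corrected intensity plus 16, in log2 units, of the 23 measured cornified envelope genes in each of the 3 PyMT control tumours (blue) and 3 PyMT/ETP tumours (orange), 1 point a tumour. Grey lines span the 6 values of a gene, genes are grouped by role, and the dashed line is the background limit of 4.61; PyMT control tumour 3 was the highest of the 6 for 21 genes.

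By group means all 23 measured genes were lower in PyMT/ETP tumours, and none passed the test. The median log2 difference of the 23 genes, PyMT/ETP minus PyMT control, was -1.47, against 0.00 for all genes, of which 49.2% were lower. With limma and Benjamini-Hochberg adjustment over 12864 genes, 0 of 23 passed an adjusted p of 0.05, as did 0% of all genes, and the adjusted p was 0.997 for the genes that came nearest. At an unadjusted p of 0.05 there were 12 of the 23, all lower, against 2.04% of all genes, of which 555 were under it in either direction. Every control tumour stood above every PyMT/ETP tumour in 11 genes, against 3.65% of all genes. These shares follow from how the genes were chosen, and nothing is read from them. The difference rested on PyMT control tumours 2 and 3. Without tumour 3 the median was -0.73, and without both tumours it was -0.23, with 14 of 23 genes lower. Without PyMT control tumour 1 the median was -2.20, and 16 of all 12864 genes passed. Of the 23 genes 6 passed: Cdsn, Crct1, Fam25c, Klk7, Padi1 and Prr9. Among the others were the hair shaft and inner root sheath genes Krt27, Krt34, Krt71, Krt73, Krt86 and S100a3. By the median of the 23 genes, control tumour 1 lay nearest to the PyMT/ETP tumours. Leaving it out widens the difference, and nothing is read from this count.

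**Figure D2:**
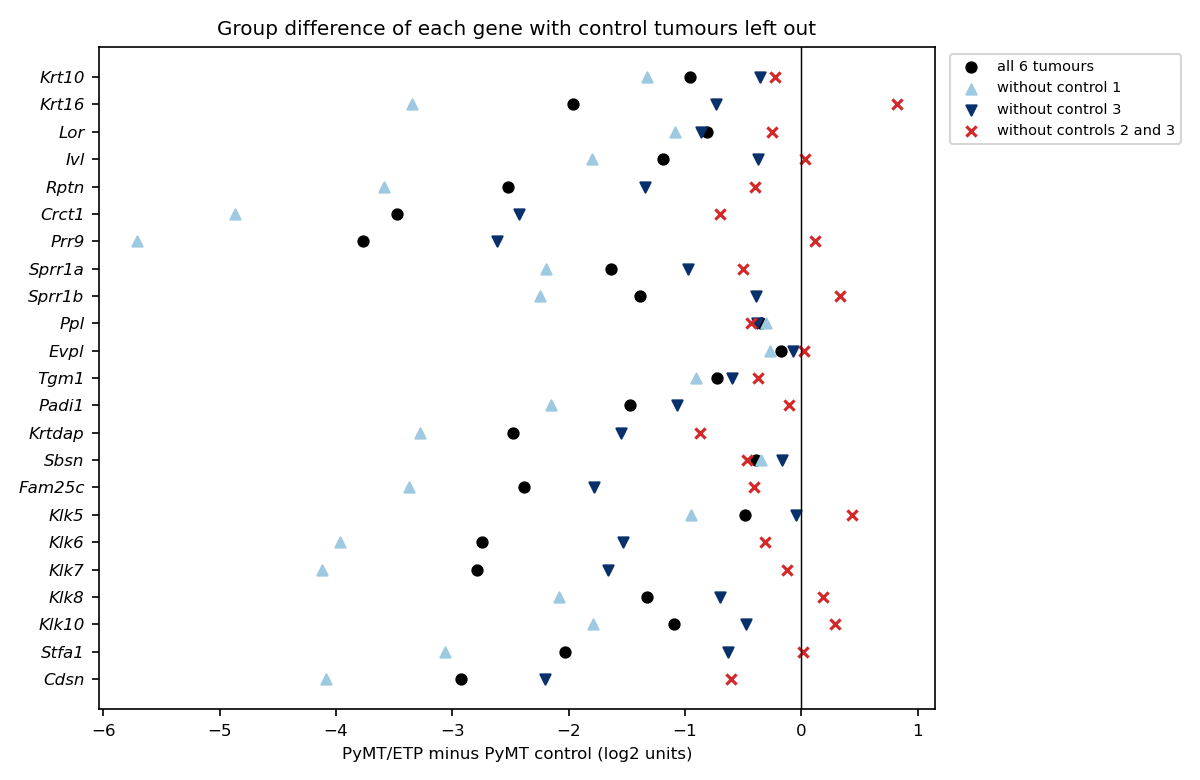
Log2 difference, PyMT/ETP minus PyMT control, of each of the 23 measured genes with all 6 tumours (black) and with control tumours left out. Without PyMT control tumour 1 the median moved from -1.47 to -2.20, and without control tumours 2 and 3 it was -0.23, with 9 genes on the other side of 0.

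Keratins of suprabasal and activated epidermis were high in PyMT control tumour 3. Krt10, the partner of keratin 1 in differentiating keratinocytes, was at 8.75, 9.02 and 10.69 in PyMT control tumours 1, 2 and 3 and at 8.51, 8.59 and 8.48 in PyMT/ETP tumours. The groups did not overlap for Krt10, but control tumours 1 and 2 stood 0.23 and 0.49 log2 units above the PyMT/ETP mean and control tumour 3 stood 2.16 above it. Krt16, a keratin of stressed, hyperproliferative epidermis, was at 4.46, 7.56 and 9.69 in the controls and at 4.82, 5.77 and 5.23 in PyMT/ETP tumours. PyMT control tumour 1 was thus below all 3 PyMT/ETP tumours, and the log2 difference of -1.96 (SE 1.07) turned to 0.82 without control tumours 2 and 3. Krt1 fell under the filter, with 5.82 in PyMT control tumour 3, 4.82 in tumour 1 and values at background in the other 4 tumours. Krt77, another suprabasal keratin, was not above background in any tumour.

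Of the 23 genes, Prr9 and Crct1 of the epidermal differentiation complex of mouse chromosome 3 spanned the widest ranges. Prr9, a proline-rich protein gene, was at 4.54, 10.00 and 10.73 in PyMT control tumours 1, 2 and 3 and at 4.30, 4.91 and 4.77 in PyMT/ETP tumours. Control tumours 2 and 3 were 40.6-fold and 67.3-fold above the PyMT/ETP mean, whereas control tumour 1 lay among the PyMT/ETP tumours. Control tumour 1 and PyMT/ETP tumour 1 were under the background limit and the other PyMT/ETP tumours near it, so these folds depend on the background treatment. The log2 difference of Prr9 between the groups was -3.77, and -2.58 without background correction. Crct1, which encodes a cysteine-rich protein of the same complex, was at 5.67, 9.12 and 10.55 in the controls and at 5.55, 5.06 and 4.30 in PyMT/ETP tumours. The groups did not overlap for Crct1, yet control tumour 1 exceeded the highest PyMT/ETP tumour by 0.12 log2 units. Rptn, encoding the matrix protein repetin, was at 4.84, 6.71 and 9.33 in the controls and at 4.41, 4.63 and 4.27 in PyMT/ETP tumours. Repetin was 6.11-fold higher in control tumour 3 than in tumour 2.

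The small proline-rich proteins, which bridge other envelope proteins, and involucrin followed the same order of tumours. Sprr1a was at 6.11, 7.06 and 8.56 in the controls and at 5.42, 5.79 and 5.63 in PyMT/ETP tumours. Sprr1b was at 4.17, 5.62 and 7.88 in the controls and at 4.27, 4.57 and 4.67 in PyMT/ETP tumours. Sprr1a had groups that did not overlap, whereas Sprr1b was lowest of all in control tumour 1. Ivl, the early envelope precursor involucrin, was at 4.36, 5.17 and 7.20 in the controls and at 4.69, 4.27 and 4.21 in PyMT/ETP tumours, so that it stood clear of background only in control tumours 2 and 3 and, narrowly, in PyMT/ETP tumour 1. Sprr3, a small proline-rich protein of internal squamous epithelia, was not above background in any tumour.

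Loricrin and periplakin did not share this order, and envoplakin did within a narrow range. Lor, the main late precursor of the envelope, was at 5.18, 6.40 and 5.63 in the controls and at 4.76, 4.92 and 5.10 in PyMT/ETP tumours. It was the only measured gene of the 23 that was highest in control tumour 2, and its log2 difference of -0.81 (SE 0.28) became -0.48 without that tumour. Ppl, the scaffold protein periplakin, averaged 8.83 ± 0.07 over the controls and 8.48 ± 0.25 over PyMT/ETP tumours, and Evpl, its partner envoplakin, averaged 7.77 ± 0.20 and 7.60 ± 0.07 (SD, n = 3). Both plakins lay within 0.66 log2 units over all 6 tumours, and of the 2 dimmer Ppl probes 1 had a log2 difference of 0.01 and the other -0.11.

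The cross-linking and deiminating enzymes spanned smaller ranges than most precursors. Tgm1, the membrane-bound transglutaminase of keratinocytes, was at 6.97, 7.42 and 7.59 in the controls and at 6.47, 6.58 and 6.76 in PyMT/ETP tumours. The groups did not overlap, and the log2 difference was -0.73 (SE 0.19), or -0.37 without control tumours 2 and 3. Padi1, a peptidylarginine deiminase of the epidermis, was at 5.82, 7.74 and 7.98 in the controls and at 5.80, 5.40 and 5.93 in PyMT/ETP tumours. Control tumour 1 fell inside the PyMT/ETP range, and control tumours 2 and 3 differed from each other by 0.24 log2 units. Casp14, the caspase of cornifying cells, fell under the filter with 5.08 in control tumour 2, 6.18 in control tumour 3 and background values elsewhere. Padi3 and Tgm3, the deiminase and transglutaminase also known from the hair follicle, were above background in control tumour 3 alone, at 5.40 and 4.76.

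Krtdap, a small secreted protein of differentiating keratinocytes, was at 5.99, 7.34 and 9.46 in the controls and at 5.93, 5.11 and 4.32 in PyMT/ETP tumours. Control tumour 1 exceeded PyMT/ETP tumour 1 by 0.06 log2 units, so the groups barely separated, and the PyMT/ETP tumours themselves spanned more than 1 log2 unit. On the dimmer Krtdap probe control tumour 1, at 4.75, was below PyMT/ETP tumour 1, at 5.44, so the groups overlapped. Sbsn, encoding suprabasin and neighbouring Krtdap on chromosome 7, was at 7.65, 7.05 and 8.01 in the controls and at 7.21, 7.06 and 7.27 in PyMT/ETP tumours, with control tumour 2 the lowest of the 6 on this probe. On the dimmer Sbsn probes control tumour 2 was at 5.50 and 5.93, above PyMT/ETP tumour 3 at 5.21 and 5.53. It was below PyMT/ETP tumour 1 on both, at 6.11 and 6.03. On the first of these probes PyMT/ETP tumour 1 was the highest of the 6, above control tumour 3 at 5.91. Fam25c was at 5.53, 8.28 and 8.70 in the controls and at 5.39, 5.32 and 4.66 in PyMT/ETP tumours. Its groups did not overlap, and control tumours 2 and 3 were 8.94-fold and 12.0-fold above the PyMT/ETP mean. Calm4, a calmodulin-like protein of the epidermis, fell under the filter because 2 tumours alone were above background, control tumour 2 at 6.59 and control tumour 3 at 7.86.

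The kallikreins, serine proteases that loosen the corneocytes, were highest in control tumour 3 in 5 of 5 genes. Klk7, the chymotryptic kallikrein of the horny layer, was at 5.0, 8.08 and 9.92 in the controls and at 4.86, 5.07 and 4.69 in PyMT/ETP tumours. Klk6, a trypsin-like kallikrein, was at 4.78, 7.22 and 9.63 in the controls and at 4.33, 4.53 and 4.53 in PyMT/ETP tumours, where this probe was not above background. The other Klk6 probe was above background in all 6 tumours, at 5.2, 6.40 and 8.86 in the controls and at 4.64, 4.65 and 5.12 in PyMT/ETP tumours. The groups did not overlap on either probe, and the log2 differences were -2.75 and -2.02. Klk8, which also takes part in desquamation, was at 5.44, 7.23 and 8.20 in the controls and at 5.28, 5.45 and 6.16 in PyMT/ETP tumours. Klk10 was at 5.90, 7.44 and 8.52 in the controls and at 6.04, 6.06 and 6.48 in PyMT/ETP tumours. Control tumour 1 was below all 3 PyMT/ETP tumours for Klk10 and inside their range for Klk8. Klk5, the tryptic kallikrein that activates others of the family, was dim, at 4.28, 5.24 and 6.08 in the controls and at 4.92, 4.39 and 4.83 in PyMT/ETP tumours.

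Stfa1, a stefin A that inhibits cysteine proteases, was at 5.74, 7.04 and 10.59 in the controls and at 5.57, 6.12 and 5.59 in PyMT/ETP tumours. Of the 23 genes it had the widest gap between control tumours 3 and 2, 11.8-fold, and its other probe had a log2 difference between the groups of -2.26 beside -2.04. Stefin A genes form a family of near-identical copies on chromosome 16, so the probes may read several of them, and Stfa3 was not above background in any tumour. Because stefins are also made by neutrophils, the neutrophil list is given beside it. Of its 11 genes with a probe, 4 to 8 were above background in the control tumours and 6 to 9 in the PyMT/ETP tumours. The summed corrected intensity of the list was 13245, 17479 and 16409 in control tumours 1, 2 and 3. It ran from 6622 to 14432 in PyMT/ETP tumours. Ltf, encoding lactoferrin, weighed most in these sums, so they do not stand for the whole list. It was at 13.44, 13.86 and 13.34 in the controls and at 13.51, 13.31 and 12.25 in PyMT/ETP tumours. Of the 6 tested genes of the list, 3 were lower and 3 higher in PyMT/ETP tumours by group means. S100a8, a calgranulin of neutrophils that activated keratinocytes make too, was at 10.95, 11.28 and 12.49 in the controls and at 11.31, 11.13 and 10.67 in PyMT/ETP tumours. Cxcr2, the chemokine receptor of neutrophils, was not above background in any tumour. The part of neutrophils in the Stfa1 values was not tested.

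Cdsn, the corneodesmosin that glues corneocytes together, was at 5.11, 8.30 and 8.87 in the controls and at 4.89, 4.29 and 4.32 in PyMT/ETP tumours. On this brightest probe the groups did not overlap, and the log2 difference was -2.93 (SE 0.83), or -0.61 without control tumours 2 and 3. The other 2 Cdsn probes were dimmer, with log2 differences of -0.70 and -0.61. They were at 4.53, 4.83 and 6.19 and at 4.47, 4.86 and 6.11 in control tumours 1, 2 and 3. On both, control tumour 1 was below PyMT/ETP tumour 1, at 4.68 and 4.67, so the groups overlapped. The desmosomal cadherins were at background: Dsc2, Dsc3 and Dsg3 in all 6 tumours, and Dsc1 and Dsg1a in all but 1 each, control tumour 3 at 4.96 and PyMT/ETP tumour 3 at 4.80. A probe at background gives an upper bound and does not show that the transcript was absent. Over the 6 measured genes with several tested probes, 8 of 9 further probes had the sign of the brightest probe, and 6 of 9 were highest in the same tumour.

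Control tumours 2 and 3 did not carry the genes in one fixed proportion. Control tumour 3 exceeded control tumour 2 for 21 of 23 genes, with a median gap of 1.08 log2 units, against -0.01 for all genes tested. The gap was 3.56 log2 units for Stfa1, 2.61 for Rptn, 2.41 for Klk6, 2.26 for Sprr1b and 2.12 for Krt16 and Krtdap. It was below 1 log2 unit for Prr9 (0.73), Cdsn (0.57), Fam25c (0.42) and Padi1 (0.24), which were among the genes high in both tumours, and reversed for Lor (-0.77). For Cdsn this holds for the brightest probe only. Its dimmer probes were at 4.83 and 4.86 in control tumour 2 and at 6.19 and 6.11 in control tumour 3. The order tumour 1 lowest and tumour 3 highest among the controls held for 20 of 23 genes, against 17.4% of all genes.

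**Figure D3:**
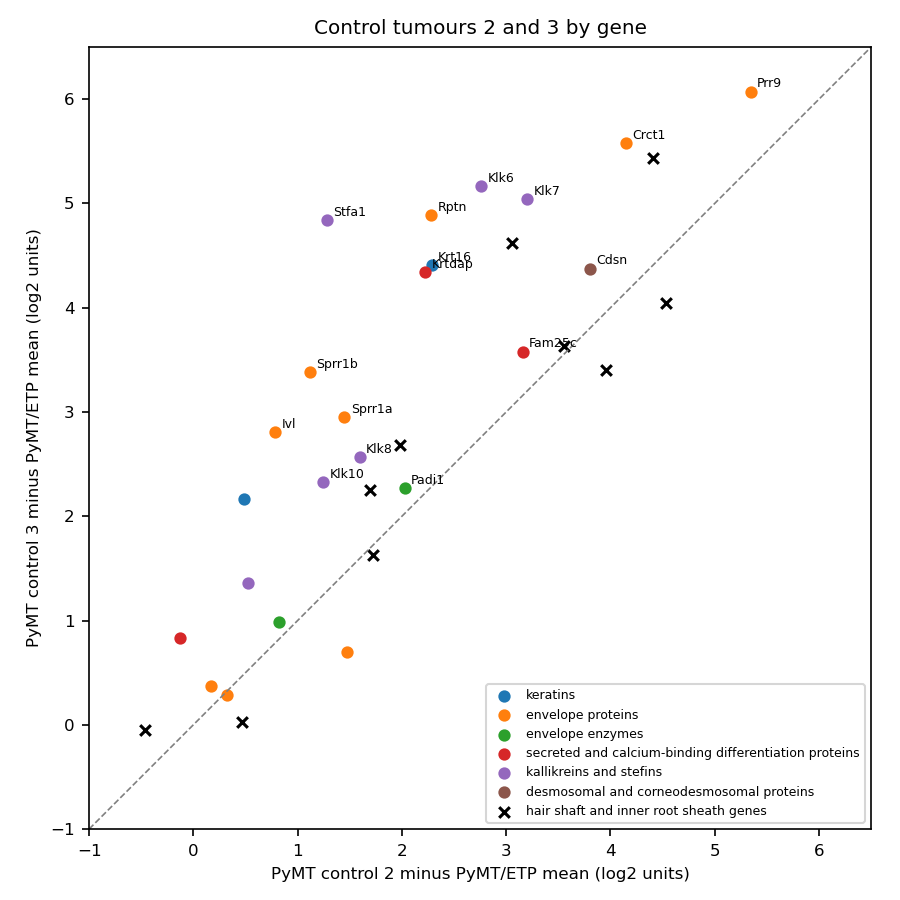
Excess of PyMT control tumour 3 (vertical axis) against that of PyMT control tumour 2 (horizontal axis) over the mean of the 3 PyMT/ETP tumours, in log2 units, for the 23 measured cornified envelope genes coloured by role and the 10 measured hair genes as crosses. The dashed line marks equal excess; 21 of the 23 genes lie above it, and 6 of the 10 hair genes.

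Genes of the hair follicle were high in the same pair of control tumours. Of 24 listed genes of the hair shaft and inner root sheath, 20 had a probe and 10 were tested, and 8 of these stood at least 1 log2 unit above all PyMT/ETP tumours in control tumour 2 and 8 in control tumour 3. Krt73, an inner root sheath keratin, was at 4.96, 9.14 and 10.16 in the controls and at 4.69, 4.99 and 4.51 in PyMT/ETP tumours. Krt34, a hair shaft keratin, was at 4.53, 8.94 and 8.45 in the controls and at 4.29, 4.75 and 4.18 in PyMT/ETP tumours. The hair list had a median gap between control tumours 3 and 2 of 0.25 log2 units. Its summed corrected intensity was 179, 2571 and 3508 in control tumours 1, 2 and 3 and ran from 162 to 203 in PyMT/ETP tumours. Of 35 genes that were at least 1 log2 unit above all PyMT/ETP tumours in both control tumours (0.272% of all genes), 12 were cornified envelope genes of the 23, and 8 were of the hair list. Of the 20 hair genes with a probe, 9, 15 and 17 were above background in control tumours 1, 2 and 3 and 5 to 9 in PyMT/ETP tumours, and Padi4, Msx2 and Foxn1 were above it in none. The part of hair follicle cells in the values of the cornified envelope genes was not tested. Melanocyte genes, of which 6 had a probe and Tyr was never above background, had a summed intensity of 39 to 52 in control and 30 to 43 in PyMT/ETP tumours. Sebaceous gland genes had 8 with a probe, of which Awat1, Dgat2l6 and Elovl3 were never above background. They summed to 736, 1090 and 1231 in control tumours 1, 2 and 3 and to 774 to 865 in PyMT/ETP tumours. Plin2, at 9.25, 9.82 and 10.16 in the controls, weighed most in these sums. Of the 4 tested sebaceous genes, Plin2 alone was highest in control tumour 3, and the other 3 were highest in control tumour 2. The median of the 4 in control tumour 3 lay at -0.13 log2 units from the PyMT/ETP mean. Skeletal muscle genes, 9 with a probe, summed to 500.3 to 587 in control and 495 to 1134 in PyMT/ETP tumours.

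**Figure D4:**
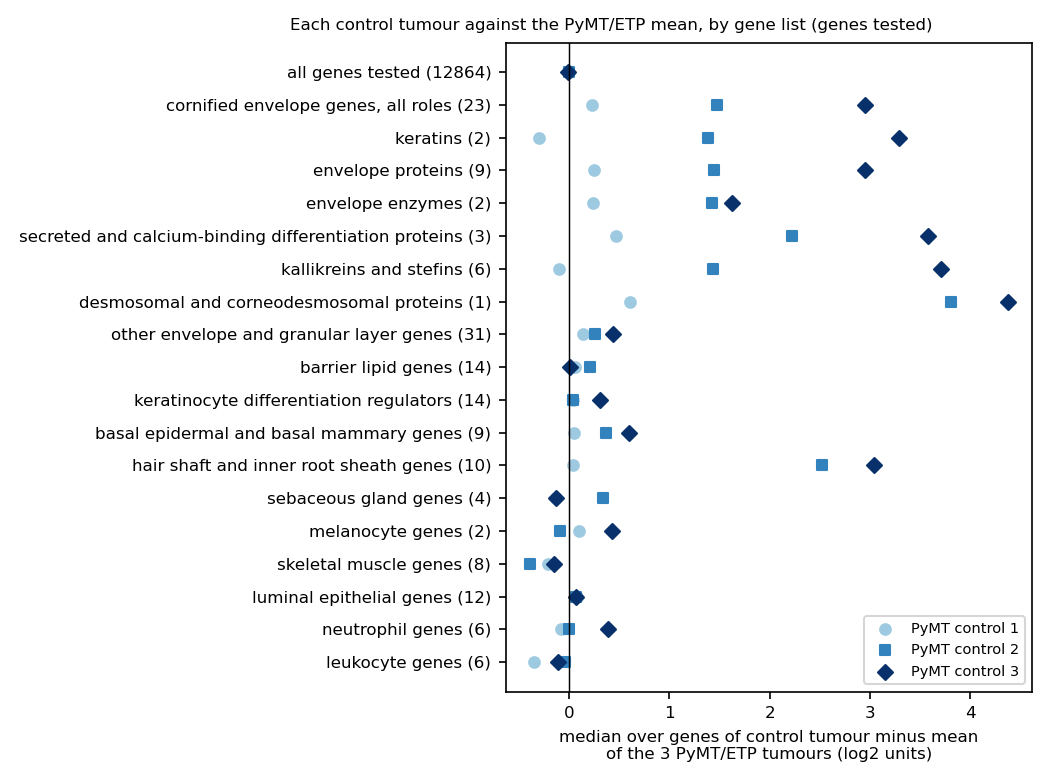
Median over the tested genes of each list (number in brackets) of each PyMT control tumour minus the mean of the 3 PyMT/ETP tumours, in log2 units. The cornified envelope genes lie at 0.23, 1.47 and 2.95 and the hair genes at 0.04, 2.52 and 3.04 in control tumours 1, 2 and 3, while luminal epithelial genes lie between 0.07 and 0.08.

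Further envelope and granular layer genes, taken as a list of 65, included some genes with the same order of tumours. Of 57 with a probe, 31 were tested, 0 passed the test, and 26 were lower and 5 higher in PyMT/ETP tumours by group means, with a median log2 difference of -0.38. Of all genes tested, 49.2% were lower. In 10 of the 31 genes control tumour 3 stood at least 1 log2 unit above all PyMT/ETP tumours (0.762% of all genes). In 2 of them control tumour 2 did (0.451% of all genes). Among the controls, tumour 1 was lowest and tumour 3 highest for 12 of the 31, against 17.4% of all genes. The highest of the 6 tumours was control tumour 3 for 15 of the 31 and control tumour 1 for 6. Asprv1, the protease that processes filaggrin, was at 7.87, 9.23 and 10.52 in the controls and at 7.93, 7.51 and 7.83 in PyMT/ETP tumours. Cnfn, encoding cornifelin, was at 5.08, 5.52 and 8.0 in the controls and at 4.81, 4.74 and 4.61 in PyMT/ETP tumours. Both were highest in control tumour 3, where the late envelope gene Lce3f (7.45) and Krt6b (7.18), a keratin of activated epidermis, were highest too.

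Genes of the barrier lipids, of the transcription factors of differentiation and of the basal layer showed smaller differences. Of 14 tested barrier lipid genes 10 were lower and 4 higher in PyMT/ETP tumours, with a median log2 difference of -0.15, and of 14 tested regulators 10 were lower and 4 higher, with a median of -0.13. None of them passed. Elovl4, the elongase of very long fatty acids for skin ceramides, was at 4.93, 6.78 and 7.69 in the controls and at 5.82, 5.22 and 4.53 in PyMT/ETP tumours. Its order of the controls held for 3 of the 14 barrier lipid genes, against 17.4% of all genes. Alox12e and Sult2b1 were highest in control tumour 2, at 5.30 and 7.17. Among the controls they were lowest in tumour 3, at 4.36 and 6.26. Klf4, a transcription factor needed for the skin barrier, was at 6.40, 6.58 and 7.67 in the controls and at 6.09, 6.13 and 6.41 in PyMT/ETP tumours, and Ovol1 was at 6.81 in control tumour 3 and between 5.60 and 6.09 elsewhere. Of 9 tested basal genes 6 were lower and 3 higher, with a median of -0.37, and none passed. Krt17, a keratin of basal mammary cells and of hair follicles, was at 9.64, 11.65 and 11.52 in the controls and at 9.86, 10.17 and 9.47 in PyMT/ETP tumours. Krt15, another basal keratin, was at 7.55, 6.76 and 8.49 in the controls and at 7.67, 8.53 and 7.48 in PyMT/ETP tumours. Trp63, the p63 factor of basal cells, was counted among the regulators. It was at 9.02, 8.88 and 9.71 in the controls and at 8.98, 9.07 and 8.62 in PyMT/ETP tumours. All 9 basal genes with a probe were above background on every array. Their summed corrected intensity was 10581, 15553 and 15244 in control tumours 1, 2 and 3 and ran from 8971 to 10471 in PyMT/ETP tumours. The sums do not stand for the whole list. In control tumours 2 and 3 only 1 of the 9 genes, Krt17, stood at least 1 log2 unit above all PyMT/ETP tumours. The part of basal cells in the values of the cornified envelope genes was not tested. The luminal list, 12 genes of 12, had a median difference of -0.11, with 9 lower and 3 higher, and the leukocyte list of 6 tested genes one of 0.15, with 1 lower and 5 higher, none of which passed.

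Promoters of some of the genes are shown because their letters were not used to choose the genes. RefSeq promoters of build GRCm38.p6, from 250 bases before to 50 after a start, were found for 27 of the 37 genes, in 30 windows. The AP-1 motif TGANTCA, searched on both strands, occurred in 11 of the 30 windows, against 7.81% of all 32851 windows. The TATA-box letters TATAAA, also on both strands, occurred in 12 of the 30, against 13.6% of all windows. Of 8 genes on chromosome 3 (Lor, Prr9, Sprr1a, Sprr1b, Sprr3, Ivl, Flg and Rptn), 8 held TATAAA, beginning between -53 and -27 from the start, and 7 held TGANTCA. Both motifs were together in 9 windows, against 1.54% of all windows. The 5 kallikreins, in 6 windows, held 0 of either motif, and neither did Stfa1, Padi1 or Cdsn. The Grainyhead motif AACCGGTT was in 0 of the 30 windows and in 0.146% of all. A match is a description of the letters and not of binding, and a missing match says nothing of the factor. The windows of 5 genes that hold both motifs and of Klk7, which holds neither, follow from 5′ to 3′, with the motifs in capitals.
Prr9, chr3:92123898-92124197, minus strand: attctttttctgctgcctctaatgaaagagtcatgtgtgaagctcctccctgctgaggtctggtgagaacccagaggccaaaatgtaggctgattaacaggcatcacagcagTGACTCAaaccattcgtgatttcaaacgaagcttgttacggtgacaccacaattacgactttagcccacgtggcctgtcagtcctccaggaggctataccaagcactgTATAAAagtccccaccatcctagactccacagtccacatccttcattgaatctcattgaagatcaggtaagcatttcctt
Rptn, chr3:93393449-93393748, plus strand: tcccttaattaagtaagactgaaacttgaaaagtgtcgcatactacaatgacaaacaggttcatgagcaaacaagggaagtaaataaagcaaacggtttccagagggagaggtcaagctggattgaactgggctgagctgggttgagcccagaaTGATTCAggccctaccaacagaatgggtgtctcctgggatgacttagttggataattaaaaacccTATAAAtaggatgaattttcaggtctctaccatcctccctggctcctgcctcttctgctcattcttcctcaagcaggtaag
Sprr1a, chr3:92485832-92486131, minus strand: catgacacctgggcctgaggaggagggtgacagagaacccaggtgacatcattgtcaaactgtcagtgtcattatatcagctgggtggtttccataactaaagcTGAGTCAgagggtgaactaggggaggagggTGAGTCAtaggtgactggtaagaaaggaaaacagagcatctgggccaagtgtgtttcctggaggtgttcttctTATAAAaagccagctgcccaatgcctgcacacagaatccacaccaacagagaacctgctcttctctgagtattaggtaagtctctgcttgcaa
Krtdap, chr7:30787655-30787954, plus strand: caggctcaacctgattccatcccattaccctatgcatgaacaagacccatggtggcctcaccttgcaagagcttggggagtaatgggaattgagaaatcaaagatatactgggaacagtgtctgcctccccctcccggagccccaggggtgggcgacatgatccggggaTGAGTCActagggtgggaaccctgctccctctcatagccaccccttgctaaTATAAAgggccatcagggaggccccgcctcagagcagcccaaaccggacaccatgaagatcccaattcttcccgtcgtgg
Fam25c, chr14:34355344-34355643, minus strand: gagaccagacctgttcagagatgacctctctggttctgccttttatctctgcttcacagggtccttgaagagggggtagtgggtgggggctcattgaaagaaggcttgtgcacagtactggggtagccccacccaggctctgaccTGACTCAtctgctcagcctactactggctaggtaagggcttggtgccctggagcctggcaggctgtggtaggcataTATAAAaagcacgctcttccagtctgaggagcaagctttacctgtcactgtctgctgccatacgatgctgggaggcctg
Klk7, chr7:43811044-43811343, plus strand: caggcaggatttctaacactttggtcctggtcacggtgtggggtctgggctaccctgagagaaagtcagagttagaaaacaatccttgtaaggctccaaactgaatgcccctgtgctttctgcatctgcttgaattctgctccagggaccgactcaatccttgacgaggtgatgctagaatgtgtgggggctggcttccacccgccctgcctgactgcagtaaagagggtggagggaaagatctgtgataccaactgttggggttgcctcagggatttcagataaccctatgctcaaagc

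Prr9, with the AP-1 letters at -138 and the TATA letters at -30, and Klk7, without either, were both higher in control tumour 3 than in any PyMT/ETP tumour, by 5.82 and 4.85 log2 units. The AP-1 letters begin at -146 and again at -116 in Sprr1a, at -96 in Rptn, at -81 in Krtdap and at -105 in Fam25c. The TATA letters begin at -43, -31, -30 and -29 in the same genes. Lor, which had the opposite order of control tumours 2 and 3, holds both motifs too, at -48 and -27.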

How the data were processed

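RNA of 6 tumours was extracted with Trizol, cleaned on columns with DNase, and labelled with biotin for Illumina arrays, per the labels' protocols. The authors deposited 1 linear intensity for each of 45281 probes and each array. When sorted, the deposited intensity values of the 6 arrays differed by at most 0.185, so the arrays had been made equal, as quantile normalization does. Which software and which background treatment the authors used is not given in the sources used here. A table from before normalization was not used, because its 24 value columns carry no sample label, so chip position was not tested as a batch.

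The background level (86.1) and its SD (4.83) were estimated from the lowest 60% of the deposited values. The normexp model of limma was applied with these parameters, 16 was added and log2 taken. Probes above 94.0, the upper 5% limit of that background, on at least 3 arrays were tested, which left 24893 probes. Genes were named from the platform annotation through RefSeq identifiers (34807 probes matched, 34885 had 1 symbol, 18 several and 10378 none), and the tested probe of highest mean stood for a gene. A gene was counted above background on an array where any of its probes was, and sums over a list took the brightest probe of each gene.

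Groups were taken from the sample titles and compared in R 4.3.3 with limma 3.58.1, two-sided, with no covariate, on 12864 genes with Benjamini-Hochberg adjustment at 0.05. The fit was tested on simulated data. The number of arrays limits the precision. The members and gene lists were chosen with earlier results of these data known. Members with a range of at least 1 log2 unit are given in every tumour, and others by mean, name or range. Of each other list the genes given with values were among its 4 of widest range over the 6 tumours. The protein sequences planned were not used.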

Additional observations from a re-analysis of the deposited data

How the results depend on the processing

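Under 9 other settings and 6 omissions of 1 tumour, every measured gene of the 23 kept a lower mean in PyMT/ETP tumours. It was otherwise without PyMT control tumours 2 and 3 (left out together because earlier results cast doubt on them), where 14 were lower, the median was -0.23 and 1 gene of all tested passed. At the stricter background limit (97.3 on all 6 arrays) 10 genes were measured and 10 were lower. With 1 tumour left out, the genes that passed ran from 0 to 16, the cornified envelope genes among them from 0 to 6, and the median of the 23 from -2.20 to -0.73. The highest counts came without PyMT control tumour 1. Over the other settings the median ran from -1.49 with cyclic loess to -0.88 without background correction, and 0 genes passed, with 362 to 803 at an unadjusted p of 0.05. Without a low-value filter 31 of 36 genes were lower, with a median of -0.98. Without PyMT control tumour 3, 15 of the 23 differences shrank by over 1.5 times, and 15 did so without background correction. With the replicate block the median was -1.47 and 0 genes passed. Same-numbered tumours deviated from their group means with correlations of -0.065, -0.059 and -0.11, which cannot exclude a pairing. The sample titles give a number and name no pairs, so no pairing was used. How far background sets the values of dim genes is unknown, because no detection p-values could be used.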

Other observations

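Of the 35 genes that were at least 1 log2 unit above all PyMT/ETP tumours in both PyMT control tumours 2 and 3, 12 belonged to no list used here. They are named after their values were seen. Several are known from hair. Krt90 was at 4.59, 9.17 and 9.41 in control tumours 1, 2 and 3 and at 4.51, 4.58 and 4.75 in PyMT/ETP tumours, and the inner root sheath keratin Krt26 was at 4.31, 6.01 and 7.03 and at 4.75, 4.54 and 4.76. The keratin-associated protein gene Krtap2-4 was at 4.24, 5.98 and 7.70 in the controls and at most 4.77 in PyMT/ETP tumours. Foxq1, a forkhead factor known from the hair coat of satin mice, was at 6.07, 7.27 and 8.07 in the controls and at 6.24, 5.26 and 6.06 in PyMT/ETP tumours. The others were Krtap1-5, Vsig8, Crym, Sp6, Acp7, Cyp1b1, Ly6g6c and Sgsh. Ly6g6c, of the Ly6 family, was at 6.36, 7.94 and 8.67 in the controls and at 6.92, 5.03 and 5.17 in PyMT/ETP tumours.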
